A study of Zea mays with 19 samples.

Results

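The effect of gibberellin on the small RNAs of germinating maize embryos was examined in the late germinating inbred line Yu537A at 53 h after imbibition. The comparison was chosen from the sample names and the series design: 3 libraries from GA3-treated seeds were set against 3 libraries from untreated seeds, which is 6 of the 18 small RNA libraries and 6 of the 19 samples in all. The treated group is Yu537A with gibberellic acid (GA3) at 53 h, and the untreated group is Yu537A without GA3 at 53 h. The labels give the dose as 400 mg/L and say that Yu537A seeds were pretreated without saying in which groups, whereas the design names a single group as treated, so the other Yu537A libraries were taken as untreated. All groups came from mature seeds germinated on moist filter paper at constant temperature, and each sample held the dissected embryos of 5 seeds. Yu537A and the early germinating line Yu82, which serves only as background here, are inbred lines from the cultivar population Yuzong5, so each group speaks for 1 genotype. The replicates are described as biological, and no batch or date is given.

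MicroRNAs are short RNAs that guide an Argonaute protein to messenger RNAs with a matching site, which plants mostly cut at that site. Gibberellin is the hormone that promotes germination: its receptor removes the DELLA repressors of growth, and in cereal grains the transcription factor GAMYB then switches on the enzymes that mobilise the stored starch. GAMYB messengers are a known target of miR159, which makes this family a natural place to look in seeds given GA3. For each microRNA the strand that is loaded is called the mature strand, and the opposite strand of the precursor duplex is usually rarer.

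The sequences on which the results turn are printed 5′ to 3′ as deposited, with T for U, and the capitals mark the seed, bases 2 to 8. The first set holds both strands of miR168, miR319 and miR156, for which the balance of strands is described further on, and the mature strand of miR159:
zma-miR168a-5p: tCGCTTGGtgcagatcgggac
zma-miR168b-3p_R+1: cCCGCCTTgcatcaagtgaat
zma-miR319a-3p_R+1: tTGGACTGaagggtgctccct
zma-MIR319b-p5: aGCTGCCGactcattcaccca
zma-miR156a-5p: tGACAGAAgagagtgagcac
zma-miR156d-3p_L+1: tGCTCACTtctctttctgtcagc
zma-miR159a-3p: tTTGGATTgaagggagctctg

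The second set holds the leading sequences of other families that lay highest or lowest in the comparison, and the most abundant sequence of all, zma-miR166a-3p. Among sequences that averaged 100 CPM (counts per library scaled to a common size) or more, some shared a seed. AGCCAAG was shared by 5 of miR169 with a median log2 fold change of -0.14, and CGGACCA by 10 of miR166 with a median of 0.23:
zma-miR169i-5p: tAGCCAAGgatgacttgcctg
zma-miR169o-5p_R-1: tAGCCAAGaatgacttgcct
zma-miR164e-5p: tGGAGAAGcaggacacgtgag
zma-miR167e-5p: tGAAGCTGccagcatgatctg
zma-miR396a-5p: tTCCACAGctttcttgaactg
zma-miR827-3p: tTAGATGAccatcagcaaaca
mtr-MIR2592bj-p3_2ss12TC19AT: aTTCCCACtgtccctgtct
zma-miR166a-3p: tCGGACCAggcttcattcccc

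The deposited table gave expected counts for 522 sequences, of which 96 had a maize name, 145 were named after another species and 281 were candidates without a miRBase name. Totals were 230546, 464724 and 440922 counts in the GA3 libraries, which listed 208, 286 and 240 sequences, against 818700, 388896 and 99062 counts in the untreated libraries, which listed 376, 230 and 109. Over all 18 libraries totals ran from 42919 to 818700. Reads carried no molecular identifiers, so these totals limit counting error only. In a principal component analysis of the 6 libraries, the shallowest one, untreated replicate 3, stood apart on the first component (43.5% of the variance) and GA3 replicate 1 on the second (31.3%). Across sequences, which are not independent replicates, log levels of GA3 replicate 1 correlated with the other 5 libraries at r = 0.805 to 0.876, whereas GA3 replicate 3 and untreated replicate 2 reached 0.956.

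No sequence passed the test for a difference between GA3 and untreated embryos. Of 220 sequences tested in edgeR's quasi-likelihood test, 0 were higher and 0 lower with GA3 at a Benjamini-Hochberg adjusted p under 0.05, which is 0% in each direction, and the lowest adjusted p was 0.907. Leaving out any 1 of the 6 libraries also gave 0 calls. The filter on low counts was applied anew in each of these fits, so the number of sequences tested changed. Each sample is a whole embryo preparation, so fewer cells of a type and less RNA per cell cannot be told apart. At an unadjusted p under 0.05 the edgeR test had 10 sequences higher with GA3 (4.55% of those tested) and 0 lower (0%), DESeq2 had 8 higher and 0 lower, and limma voom had 16 higher and 1 lower. Neither of these tools made a call after adjustment. Without the filter on low counts, edgeR called 2 of 522 sequences higher (0.383%), ath-miR169h_2ss14CG15TC and mtr-MIR2592bj-p3_2ss12TC19AT, whose counts are given further on. Among the 36 sequences that averaged 1000 CPM or more, 18 fitted log2 fold changes were above 0 and 18 below, with a median of 0.03 and a range from -0.85 to 1.63. The 95% interval of the fold change lay inside 2-fold in either direction for 7 of these 36 sequences and inside 4-fold for 28, so for most abundant sequences a 4-fold change was outside the interval and a 2-fold change was not. Below 100 CPM no interval lay inside 4-fold.

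**Figure D1:**
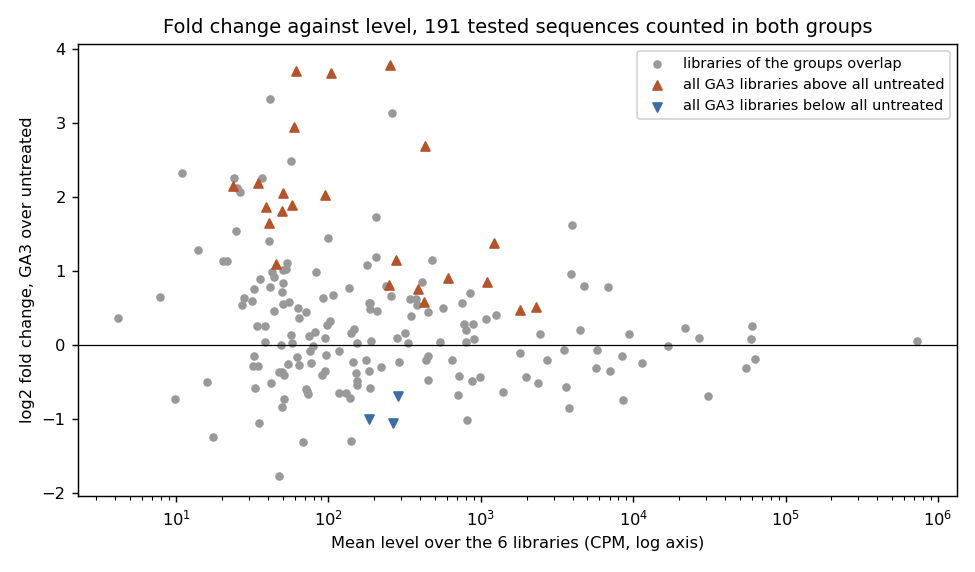
Each point is 1 of the 191 tested sequences with counts in both groups, with its mean level in CPM over the 6 libraries (log axis) against the log2 fold change of GA3 over untreated. Triangles mark sequences whose 3 GA3 libraries all lay above (23) or below (3) the 3 untreated libraries, and the spread of fold changes widens towards low levels.

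In 23 sequences every GA3 library lay above every untreated one (10.5% of the 220), and in 3 every GA3 library lay below (1.36%). At 100 CPM or more, this held for 12 higher (11.3% of 106) and 3 lower (2.83%). In 13 of the 23, untreated replicate 3 was at 0 counts, as it was for 115 of all 220. By share of the library total, without the scaling factors, the counts were 18 higher (8.18%) and 6 lower (2.73%). By scaled levels, the counts were 41 (18.6%) and 4 (1.82%) without GA3 replicate 1, and 29 (13.2%) and 18 (8.18%) without untreated replicate 3. Fewer libraries separate more easily. Over all 220 sequences, of which 19 had no count in the 6 libraries, 128 fitted log2 fold changes were above 0 (58.2%) and 73 below. The median over the 220 was 0.16, or 0.13 with sequences at 0 in 1 group set to their bound. It was 0.03 under the size factors of DESeq2, so the surplus above 0 moves with the scaling.

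The same 10 families held most of the counts in both groups, 92.7% with GA3 and 93.0% untreated. miR166, which restrains the class III homeodomain leucine zipper factors of meristem and leaf polarity, took 63.1%, 58.6% and 64.4% of the counts in the GA3 libraries, against 63.7%, 57.8% and 59.8% in the untreated libraries. The ranges overlap almost fully, and the log2 fold change of zma-miR166a-3p was 0.06 with a 95% interval from -0.71 to 0.83. miR444, a family of grasses that targets MADS-box transcription factors, took 6.76%, 6.19% and 6.26% with GA3, against 7.08%, 7.52% and 7.07% untreated. All 3 GA3 libraries lay below all 3 untreated ones by share, and the exact permutation test of this difference gave p = 0.1, the smallest that 3 against 3 samples can give, and 0.8 after adjustment over 12 lists. After scaling its fit overlapped zero change, with -0.27 for the family (95% interval -0.88 to 0.33), -0.19 for zma-miR444a and -0.0038 for osa-miR444f.

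**Figure D2:**
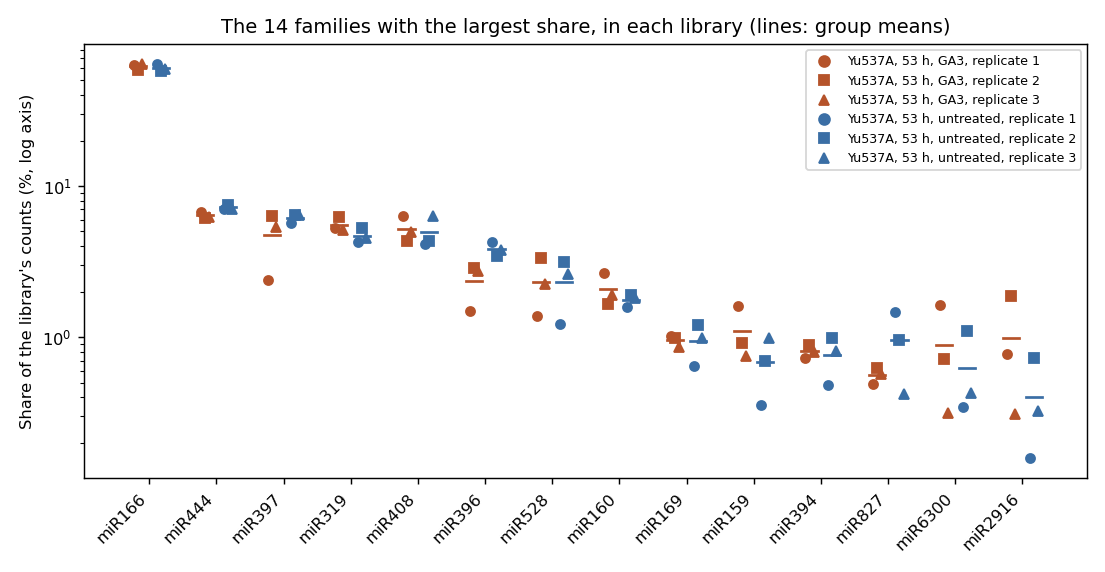
Percent of each library's counts (log axis) held by the 14 families with the largest mean share, with GA3 to the left of untreated for each family, 1 symbol per library and a line at the group mean. Most groups overlap; miR444 and miR396 are lower in all GA3 libraries, and GA3 replicate 1 is low for miR397 (2.40%) and high for miR159 (1.60%).

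The 48 tested families gave 0 calls higher (0%) and 0 lower (0%) in edgeR, with a lowest adjusted p of 0.658. At an unadjusted p under 0.05 edgeR had 1 family higher, miR2592 (2.08%), and 0 lower (0%). By libraries that did not overlap, 3 families were higher (6.25%) and 5 lower (10.4%) with GA3. The intervals of 7 families lay inside 2-fold and those of 23 inside 4-fold.

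GAMYB and TCP targeting families come first because of the link of GAMYB to gibberellin. miR159 targets GAMYB messengers and the related miR319 targets TCP factors of leaf growth. Over all 220 sequences tested, 128 were above 0, 73 below and 19 without counts in the 6 libraries, with a median of 0.16. All 12 tested sequences of the GAMYB and TCP list had a fitted log2 fold change above 0, with a median of 0.46, and none passed the test. The count was 11 of 12 under the size factors of DESeq2, 9 of 12 without GA3 replicate 1 and 7 of 12 without untreated replicate 1. As a share of all counts the list took 6.62 ± 0.68% with GA3 and 5.37 ± 0.70% untreated (SD, n = 3 each, exact permutation p = 0.2, adjusted 0.8).

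The mature strand zma-miR159a-3p had 2771, 2649 and 2208 counts in the GA3 libraries, against 1731, 1514 and 679 in the untreated libraries. Scaled, this was 8612 ± 2463 CPM with GA3 and 5006 ± 2606 CPM untreated (SD, n = 3 each), and the groups overlap. Its log2 fold change was 0.78 with a standard error of 0.49 and a 95% interval from -0.26 to 1.83 (edgeR, adjusted p = 1). The value was 0.46 without GA3 replicate 1, 0.39 without untreated replicate 1 and 1.33 without untreated replicate 3. The family as a whole took 1.09 ± 0.45% of counts with GA3 and 0.681 ± 0.317% untreated, with GA3 replicate 1 the highest library at 1.60%.

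The mature strand of miR319, zma-miR319a-3p_R+1, was among the most abundant sequences and differed by less than its error. It had 11642, 27903 and 21909 counts with GA3, against 34031, 20116 and 4384 untreated, and its log2 fold change was 0.25 (95% interval -0.47 to 0.97), with values from 0.036 to 0.38 when 1 library was left out. The opposite strand, zma-MIR319b-p5, had 295, 686 and 363 counts with GA3, against 318, 312 and 80 untreated. After scaling these were 1406 ± 278 CPM and 777 ± 217 CPM (SD, n = 3 each), and every GA3 library lay above every untreated one. Its log2 fold change was 0.86 with a 95% interval from 0.04 to 1.68, an unadjusted p of 0.0412 and an adjusted p of 0.907 in edgeR. The value was 0.52 without GA3 replicate 2 and 0.58 without untreated replicate 1, and lay between 0.84 and 1.00 without any of the others.

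miR168 targets the messenger of ARGONAUTE1, the protein that carries plant microRNAs, and so feeds back on the pathway itself. Its strand zma-miR168b-3p_R+1 had the second lowest unadjusted p of all named sequences. It had 570, 576 and 424 counts in the GA3 libraries, against 284, 276 and 67 in the untreated libraries. The scaled levels were 2341, 1448 and 1497 CPM with GA3 and 473, 770 and 781 CPM untreated, so the lowest GA3 library lay above the highest untreated one. The log2 fold change was 1.39 with a standard error of 0.48 and a 95% interval from 0.37 to 2.41 (edgeR, unadjusted p = 0.0107, adjusted p = 0.907). Leaving out any 1 of the 6 libraries gave values from 1.08 to 1.56.

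The mature strand zma-miR168a-5p had a smaller fitted difference. It had 518, 828 and 584 counts with GA3, against 629, 647 and 141 untreated, or 2090 ± 33 CPM and 1498 ± 400 CPM (SD, n = 3 each). The scaled libraries did not overlap, though their shares of the library total did, and the log2 fold change was 0.48 (95% interval -0.23 to 1.19). It was 0.21 without untreated replicate 1 and 0.33 without GA3 replicate 2. All 4 tested sequences of miR162 and miR168 had a fitted value above 0, or 3 of 4 without GA3 replicate 2 or untreated replicate 3, with a median of 0.65, and the list took 0.367 ± 0.136% of counts with GA3 and 0.207 ± 0.068% untreated (SD, n = 3 each, exact permutation p = 0.2). The family sum of miR168 had a log2 fold change of 0.76 (95% interval -0.02 to 1.54, edgeR, adjusted p = 0.658), and 0.39 without GA3 replicate 1, and did not overlap between groups.

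The balance between the strands of a family, summed over all its sequences and not within 1 precursor, needs no scaling factor, since both strands come from 1 library. In miR168, the 3p strands made up 56.3%, 45.2% and 46.5% of the family's counts with GA3, against 38.6%, 33.5% and 37.6% untreated. In miR319, the 5p strands made up 4.25%, 3.45% and 2.50% with GA3, against 2.04%, 2.23% and 2.19% untreated. In miR156, the 3p strands made up 47.4%, 26.0% and 25.5% with GA3, against 16.6%, 21.6% and 4.96% untreated. The 4.96% rests on 13 counts in the shallowest library. The printed zma-miR156d-3p_L+1 supplied only 81 of the 334 counts on 3p strands in GA3 replicate 1. For these 3 families every GA3 library lay above every untreated one, each with an exact permutation p = 0.1, the smallest possible here, and an adjusted p of 0.433 over families.

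Across the 13 families with both strands above 50 CPM, the rarer strand had a higher mean share with GA3 in 8, and the other 5 were lower. The groups overlapped in miR166 and miR397, both large families, though not in miR319. The rarer strand of miR166 made up 0.119 ± 0.059% with GA3 and 0.067 ± 0.042% untreated (SD, n = 3 each). That of miR397 made up 17.7 ± 1.3% and 16.8 ± 1.0% (SD, n = 3 each). These 13 families rest on a strand assignment that was corrected after a first version had been seen. In the first version, which took strands from the names and the deposited type, 17 families were compared and 9 were higher, and the exact permutation p was 0.1 for 4 of them. These 4 were miR156, miR168 and miR319, again higher, and miR2916, which was lower with GA3 and has strands that share a stretch of 12 bases.

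**Figure D3:**
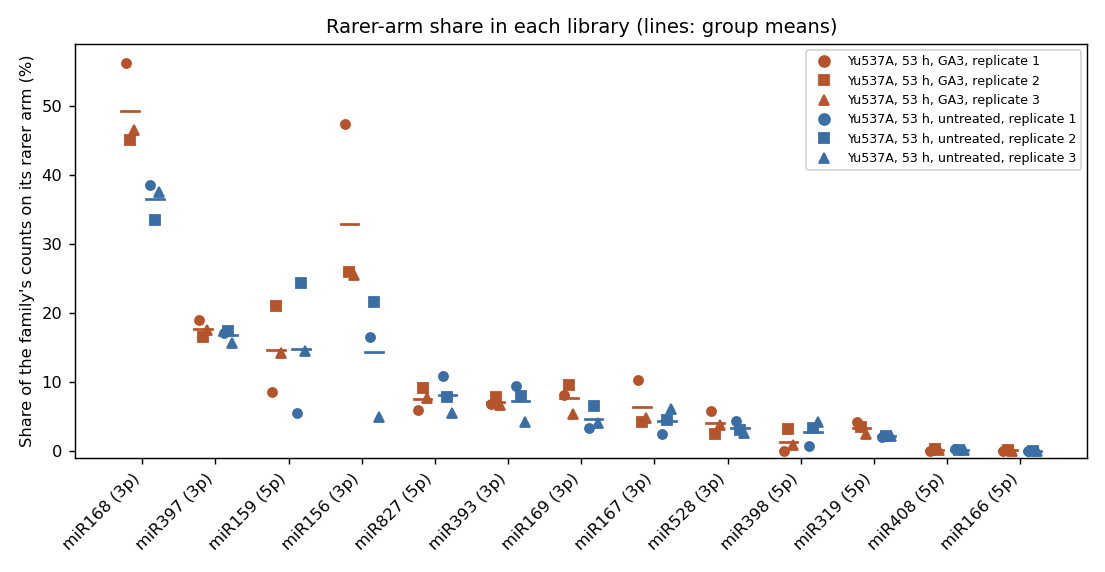
Percent of each family's counts that fall on its rarer strand (named in brackets), in each library, with GA3 to the left of untreated, 1 symbol per library and a line at the group mean. The GA3 libraries lie above the untreated ones for miR168, miR156 and miR319; GA3 replicate 1 is the highest library of miR168 (56.3%) and miR156 (47.4%).

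In the phase change and growth lists, zma-miR156a-5p, zma-miR396a-5p and zma-miR164e-5p had fitted values below 0 without passing the test. The most abundant sequence of the growth list, zma-miR166a-3p, was at 0.06. miR156 restrains the SPL factors that bring on the adult phase, and zma-miR156a-5p had 370, 1453 and 840 counts with GA3, against 4744, 1398 and 249 untreated. That is 2713 ± 1089 CPM with GA3 and 4899 ± 2641 CPM untreated (SD, n = 3 each), with untreated replicate 1 above the rest, and the log2 fold change of -0.85 (95% interval -2.23 to 0.52) came to -0.37 without that library. The 3p strand zma-miR156d-3p_L+1 stayed near 0 at 0.04 (95% interval -1.25 to 1.32). Over the 8 tested phase change sequences, 4 were above 0 and 4 below. Of 10 tested each time, 7 were above 0 and 1 below without untreated replicate 1, and 6 and 2 without GA3 replicate 1.

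miR396, which targets growth regulating factors, took 1.49%, 2.88% and 2.72% of counts with GA3, against 4.23%, 3.42% and 3.78% untreated. Every GA3 library lay below every untreated library, and the family's log2 fold change was -0.82 (95% interval -2.10 to 0.47, edgeR, adjusted p = 0.658). Its leading sequence zma-miR396a-5p had 2488, 10756 and 9504 counts with GA3 and 30002, 10481 and 2964 untreated. The log2 fold change was -0.68, and -0.39 without GA3 replicate 1. The scaled libraries of this sequence overlapped, with GA3 replicate 3 at 33566 CPM and untreated replicate 2 at 29244 CPM. miR164, which targets NAC factors of organ boundaries, gave a sequence whose scaled libraries did not overlap: zma-miR164e-5p had 34, 96 and 79 counts with GA3, against 277, 101 and 27 untreated, with a log2 fold change of -0.68 (95% interval -1.95 to 0.59). Over the 28 tested sequences of the meristem and growth list, which holds these families and miR166, 16 were above 0 and 10 below, with a median of 0.12. This direction turned in fits without single libraries, in which the filter was applied anew. Of 29 tested each time, 8 were above 0 and 18 below without GA3 replicate 3, 12 and 14 without GA3 replicate 2, and 10 and 16 without untreated replicate 2.

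Auxin related families were mixed. miR160 targets auxin response factors that repress transcription, and zma-miR160a-5p was at 23499 ± 4822 CPM with GA3 and 19951 ± 600 CPM untreated (SD, n = 3 each), with a log2 fold change of 0.24 (95% interval -0.39 to 0.87) that came to 0.044 without GA3 replicate 3 and 0.081 without untreated replicate 2. miR393 targets auxin receptors, and zma-miR393a-5p_R-1 was at 5648 ± 1386 CPM with GA3 and 5895 ± 180 CPM untreated, with a log2 fold change of -0.06 (95% interval -0.98 to 0.86). miR167 targets auxin response factors that activate transcription. The counts of zma-miR167e-5p were 135, 209 and 155 with GA3, against 748, 286 and 47 untreated, and its log2 fold change was -0.68 (95% interval -1.76 to 0.41), and -0.38 without untreated replicate 1. Of the 15 tested sequences of the list, 7 were above 0 and 8 below, and 8 and 7 without GA3 replicate 1.

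Nutrient related families did not separate the groups. The copper families miR397, miR398, miR408 and miR528, which restrain laccases and other copper proteins, took 12.6 ± 2.0% of counts with GA3 and 14.0 ± 2.4% untreated (SD, n = 3 each, exact permutation p = 0.5), and 8 of 15 sequences were above 0. The count was 13 of 16 without GA3 replicate 1, 5 of 16 without GA3 replicate 2, GA3 replicate 3 or untreated replicate 2, and 5 of 15 under the size factors of DESeq2. zma-miR408a_L-1 had a log2 fold change of 0.08, and its 95% interval from -1.55 to 1.71 was wide for so abundant a sequence. zma-MIR397b-p5 had 4456, 24580 and 19408 counts with GA3, against 38532, 20436 and 5334 untreated, and its log2 fold change of -0.30 came to 0.04 without GA3 replicate 1.

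In miR827, which acts in phosphate balance, the GA3 libraries lay closer together than the untreated ones. zma-miR827-3p had 1064, 2652 and 2315 counts with GA3, against 10755, 3439 and 391 untreated, or 6404 ± 1917 CPM and 10682 ± 6735 CPM (SD, n = 3 each). Its log2 fold change was -0.74 (95% interval -2.11 to 0.64), and -0.19 without untreated replicate 1. All 3 tested sequences of the phosphate and sulphate list were below 0, but 2 of 3 were without GA3 replicate 1, untreated replicate 1 or untreated replicate 2.

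miR169 targets NF-YA factors, the DNA-contacting subunits of a CCAAT-binding complex. As a family it took 0.957 ± 0.091% of counts with GA3 and 0.943 ± 0.283% untreated (SD, n = 3 each), and 9 of its 16 tested sequences were above 0 and 7 below. Of 18 tested without GA3 replicate 1, 11 were above 0 and 3 below. Within it zma-miR169i-5p had 431, 111 and 53 counts with GA3, against 56, 56 and 8 untreated. GA3 replicate 1 was at 1770 CPM and the other GA3 libraries at 279 and 187 CPM, against 114 ± 36 CPM in the untreated libraries (SD, n = 3). The log2 fold change was 2.69 (95% interval 0.30 to 5.07, edgeR, adjusted p = 0.907), and 1.01 without GA3 replicate 1. The more abundant zma-miR169o-5p_R-1, with the same seed, was at 8038 ± 2829 CPM with GA3 and 8852 ± 1700 CPM untreated, with a log2 fold change of -0.14 (95% interval -1.29 to 1.01).

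Among sequences counted in both groups, those named after other species supplied the largest fitted values. mtr-MIR2592bj-p3_2ss12TC19AT had 133, 253 and 70 counts with GA3, against 9, 28 and 0 untreated, and its log2 fold change was 3.79 (95% interval 0.43 to 7.16, edgeR, unadjusted p = 0.0294, adjusted p = 0.907). peu-miR2916_L-2R-3_1ss6AG had 35, 140 and 26 counts with GA3, against 4, 12 and 0 untreated, with a log2 fold change of 3.68. Both were higher in all 3 GA3 libraries. ptc-MIR6424-p3_1ss2GC had 318, 44 and 0 counts with GA3, against 31, 36 and 0 untreated, and its log2 fold change was 3.14, and 0.21 without GA3 replicate 1. Of 43 tested sequences of other named families, 22 were above 0 and 18 below, and of 45 tested without GA3 replicate 2, 18 were above 0 and 23 below. Of 67 tested candidates without a name, 41 were above 0, 13 below and 13 without counts in the 6 libraries, with a median of 0.45. In fits without 1 untreated library, the filter was applied anew, more candidates entered the test, and the surplus differed. Of 104 tested without untreated replicate 3, 38 were above 0 and 36 below with a median of 0. Of 73 tested without untreated replicate 1, 50 were above 0 and 3 below with a median of 1.23. Since the sets differ, these counts do not show whether the values of the 67 candidates moved.

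Sequences listed in 1 group alone were mostly listed in a single library. Of the 522 sequences, 431 were listed in at least 1 of the 6 libraries and 99 in all 6, and those 99 held at least 98.8% of the counts of every library. Listing with GA3 alone applied to 41 sequences, 33 of them in a single library, and listing in untreated embryos alone to 102, of which 91 were in the deepest library, untreated replicate 1, by itself. The candidate PC-5p-47037_50 was the only sequence listed in all 3 libraries of one group and none of the other, with 12, 8 and 12 counts with GA3 and 0 in each untreated library. Against a floor of 4 counts per library it was at least 1.73-fold higher, and it fell below the filter for the test.

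Other named sequences at 0 in every untreated library were also low with GA3. bdi-MIR169c-p3_2ss14TC18GC had 0, 21 and 13 counts (at least 1.53-fold higher), mtr-MIR2603-p3_2ss9AC17AC had 13, 31 and 0 (at least 2.04-fold) and PC-5p-27644_113 had 30, 12 and 0 (at least 2.38-fold). PC-3p-30668_98 with 61 counts and ath-miR169h_2ss14CG15TC with 91 were listed in GA3 replicate 1 alone. miR2118, a trigger of phased small RNAs in flowers, was looked at as a sign of another tissue, in 1 list with miR482. The 5 sequences of this list took 0.0222 ± 0.0115% of counts with GA3 and 0.0165 ± 0.0085% untreated (SD, n = 3 each, exact permutation p = 0.6). The variant osa-MIR2118e-p3_2ss13TA19CT supplied most of these counts in every library. Of the maize-named sequences, zma-miR2118d was at 0 in all 6 libraries and zma-miR2118b was listed in GA3 replicate 2 alone. The sum therefore says little of maize-named miR2118, and whether miR482 marks flowers was not tested. No single microRNA serves as a defining marker of the embryo, so the tissue label itself was not tested.

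**Figure D4:**
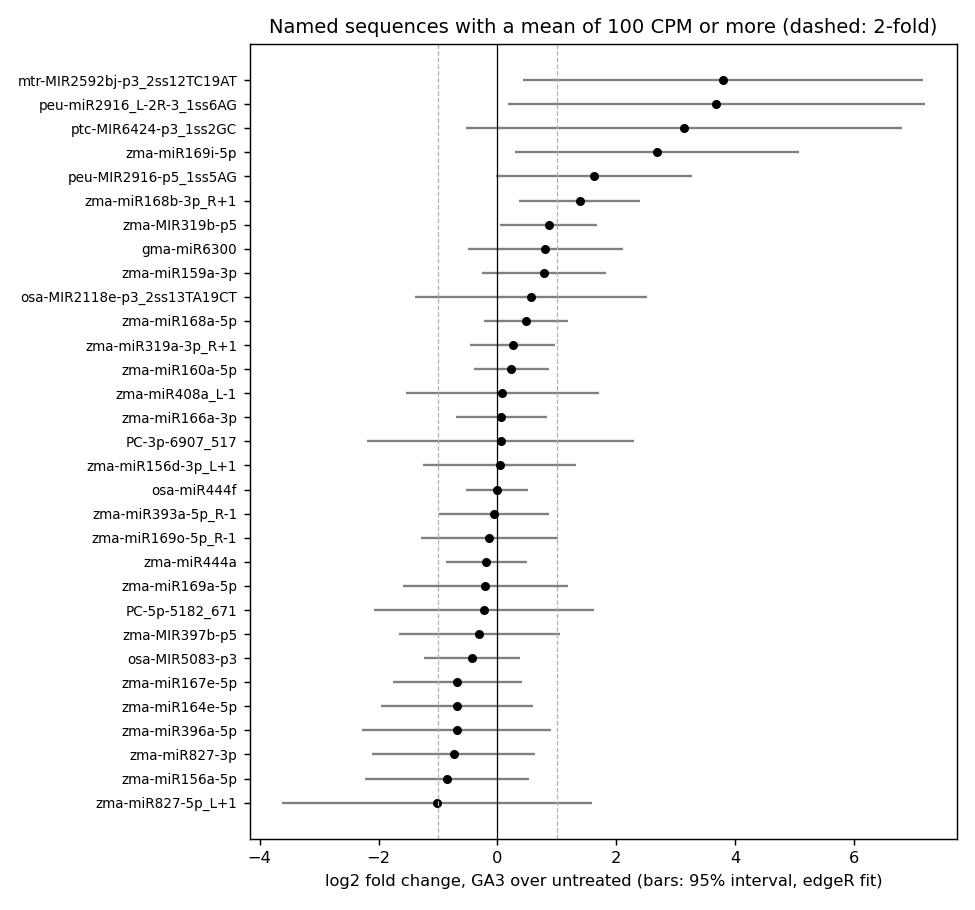
Log2 fold change of GA3 over untreated (point) with its 95% interval (bar) from the edgeR fit, for the named sequences that averaged 100 CPM or more; dashed lines mark 2-fold. The intervals of zma-miR168b-3p_R+1, zma-MIR319b-p5, zma-miR169i-5p, mtr-MIR2592bj-p3_2ss12TC19AT and peu-miR2916_L-2R-3_1ss6AG lie above 0 before adjustment, and that of osa-miR444f is among the narrowest at -0.52 to 0.51.

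Lengths did not differ between groups beyond the spread of the libraries. Sequences of 21 nt held 89.4 ± 1.7% of counts with GA3 and 90.3 ± 1.4% untreated (SD, n = 3 each, exact permutation p = 0.5), and those of 22 nt held 1.31 ± 0.46% and 0.938 ± 0.249% (exact permutation p = 0.3, the lowest of the 6 classes). Names with a shifted end held 13.8 ± 0.9% with GA3 and 13.0 ± 1.7% untreated.

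The other groups of the late line give the scale of these levels. zma-miR168b-3p_R+1 was at 373 ± 203 CPM at 6 h, at 1762 ± 502 CPM at 53 h with GA3, at 675 ± 175 CPM at 53 h untreated and at 1615 ± 924 CPM at 78 h (SD, n = 3 each). zma-MIR319b-p5 was at 270 ± 83 CPM at 6 h, 1406 ± 278 CPM at 53 h with GA3, 777 ± 217 CPM at 53 h untreated and 1544 ± 659 CPM at 78 h. For both, the mean with GA3 at 53 h was nearer to that at 78 h than to the untreated mean at 53 h, but 1 library at 78 h lay within the range of the untreated libraries at 53 h. zma-miR159a-3p averaged 13460 ± 3240 CPM at 78 h, above the means of both groups at 53 h. The first 2 sequences had been named for higher levels with GA3, and by group means not all sequences shared their pattern. zma-miR156a-5p was at 2713 CPM with GA3, 4899 CPM untreated and 4523 ± 3627 CPM at 78 h. zma-miR396a-5p was at 23608, 37903 and 40663 ± 51115 CPM. For these, the 78 h mean lay nearer to the untreated mean, with 78 h replicate 1 far above the other 78 h libraries. Those other libraries, at 2445 and 2415 CPM for zma-miR156a-5p and 13424 and 8937 CPM for zma-miR396a-5p, lay below the GA3 mean. These values are a description, with no test between the times.

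**Figure D5:**
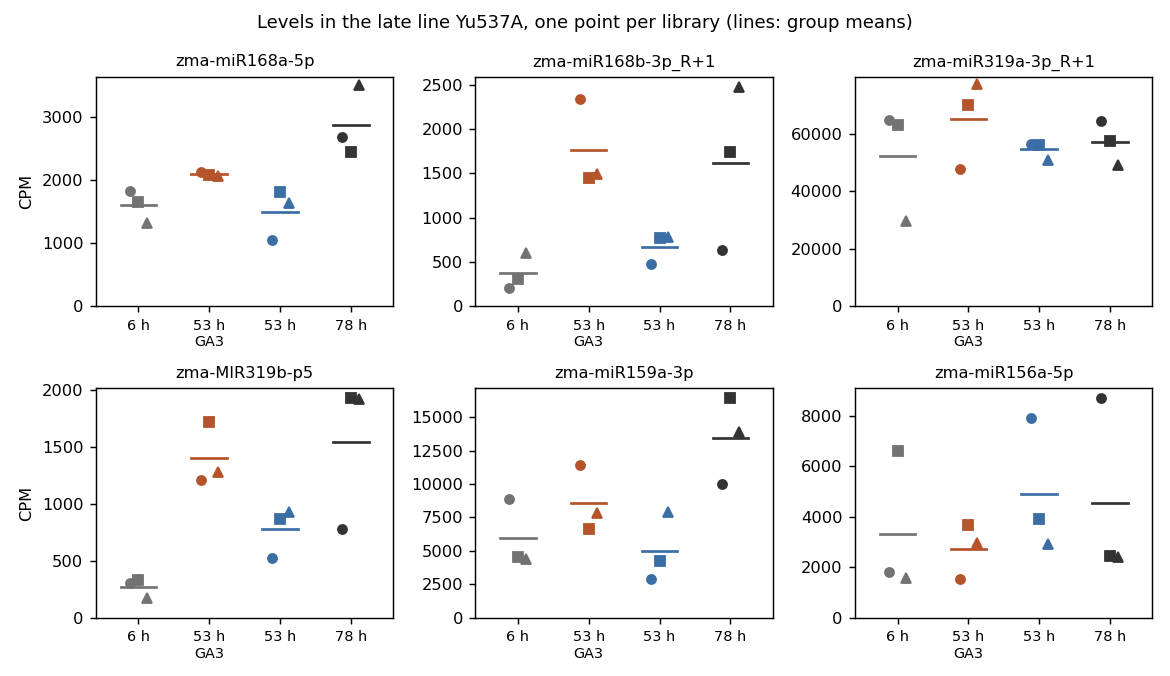
CPM of 6 sequences in the late line at 6 h, 53 h with GA3, 53 h untreated and 78 h, 1 symbol per library (circle, square and triangle for replicates 1, 2 and 3) and a line at the group mean. The GA3 libraries of zma-miR168b-3p_R+1 and zma-MIR319b-p5 lie above the untreated ones at 53 h, and zma-miR156a-5p has 1 high untreated library.

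The degradome library, which captures the 5′ ends of cut messengers, stands in no group, so it shows which sites were found but not whether GA3 changed them. The read counts and p-values of sites are those of the authors' deposited table, and the transcript annotation is the GO terms listed there. Of the at most 2 sites taken per named sequence, those of the 2 best categories with the lowest p, the one with the most reads was that of zma-miR396a-5p, 201 at position 1329 of Zm00001d002429, annotated to regulation of transcription. zma-miR444a had 92 reads at a site in Zm00001d016957 and 93 in Zm00001d050897, both annotated as transcription factors, and osa-miR444f was listed for the same sites. zma-miR160a-5p had 72 reads in Zm00001d017284 and 61 in Zm00001d051172, both annotated to auxin signalling. The deposited p-values of these sites ran from 0.0065 for both sites of zma-miR160a-5p to 0.132 for that of zma-miR396a-5p.

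In the GAMYB and TCP targeting families, zma-miR159a-3p had 13 reads in Zm00001d036551 and 40 in Zm00001d043131, both annotated to DNA binding. zma-miR319a-3p_R+1 had 18 reads in Zm00001d007868, which carries no GO term there. zma-miR169i-5p had 5 reads at each of its first 2 sites, one of them in Zm00001d027874, annotated to the CCAAT-binding factor complex. Deposited p-values were 0.0118 and 0.102 for the sites of zma-miR159a-3p, in the order given, and 0.0894 for both sites of zma-miR169i-5p. zma-miR168a-5p, zma-miR168b-3p_R+1 and zma-MIR319b-p5 had 0 sites of the 2 best categories.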

How the data were processed

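Small RNA libraries of maize embryos were compared between Yu537A with GA3 and untreated Yu537A at 53 h, 3 against 3. The authors deposited expected counts per precursor entry, with a sequence's reads split among its entries, and a signal column equal to these times 1 factor per library, which was not used. In the degradome table the authors deposited read counts per site, a p-value not described as adjusted, an alignment score and an other measure, the cleavage category. The sources used here name neither an aligner nor a genome build. Empty lines in the miRNA file numbered 9.

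The 782 entries were summed to 536 sequences and rounded. Values above 0 of sequences with several entries were whole (within 0.01) in 38.6% before and 88.6% after summing. Sequences of equal name apart from an index and equal values (14) were merged, leaving 522. The smallest listed total was 4 counts in the median library and was used as the floor for sequences at 0. Counts were tested with edgeR 4.0.16 (R 4.3.3): TMM, minimum count 10, all 18 libraries, 1 mean per group, quasi-likelihood F test, two-sided, Benjamini-Hochberg over all 220 sequences (48 families). CPM are scaled by the TMM library sizes and do not sum to a fixed total. Shares were compared by two-sided exact permutation tests. The biological coefficient of variation was 0.959. DESeq2 1.42.0 and limma 3.58.1 served as alternatives. Tables and plots used matplotlib 3.10.9, scipy 1.17.1, numpy 2.4.6 and pandas 2.3.3 under Python 3.11.15. The fit was also run on simulated counts with a smaller spread than these data. That run checks the code and says nothing of the power to find changes here.

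Members, lists and tests were chosen with earlier results of these data known. Named sequences were, at 10 CPM or more, the 10 higher and 5 lower with the smallest unadjusted p (1 per family and strand), the 2 most abundant of each list, any called in a fit, and any listed in all libraries of 1 group alone. Strands were assigned by name, or by 12 bases shared with a named family member (11 names moved), and 4 families whose strands share 12 bases were left out. That rule was adopted after a version based on names and deposited types had been seen. Equal replicate numbers do not pair libraries: the labels say nothing of it, and residual correlations of like-numbered libraries were -0.13, 0.14 and -0.08. Permutation p-values rest on the 6 compared libraries, and edgeR p-values and intervals on a spread estimated over all 18 libraries. At 100 CPM or more, the median SD of log2 CPM was 0.51 with GA3 and 0.58 untreated. It was 0.82 and 0.74 in the late line at 6 h and 78 h, and 0.48 and 0.58 in Yu82 at 6 h and 53 h.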

Additional observations from a re-analysis of the deposited data

How the results depend on the processing

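The count of sequences higher with GA3 was 0 under every alternative that was run except 1: without the filter on low counts, edgeR called 2 of 522 sequences higher (0.383%, adjusted p = 0.0276), ath-miR169h_2ss14CG15TC with 91 counts in GA3 replicate 1 alone and mtr-MIR2592bj-p3_2ss12TC19AT. The counts of sequences lower with GA3, and of families in either direction, were 0 in all 14 alternatives. Fits with the replicate number as a block, in the 6 compared libraries, also made 0 calls (lowest adjusted p 0.68 for sequences, in a range of 0.276 to 1 over the alternatives without a call). Values of the arms as the names and types give them, an alternative chosen after seeing the data, moved by less than 1 SD for the 13 families. Limits are the low depth of untreated replicate 3, the single factor that scales each library, and 3 libraries per group, which cannot reach an exact p below 0.1.

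Fitted values near 0 changed sign, and the cause was not tested. osa-miR444f was 0.013 with 1 entry per sequence. Under RLE size factors, DESeq2, the compared groups only and the replicate block, zma-miR408a_L-1 was -0.045, -0.045, -0.027 and -0.013, and zma-miR166a-3p was -0.071, -0.071, -0.061 and -0.056. zma-miR156d-3p_L+1 was -0.084, -0.0023, -0.096, -0.033 and -0.075 under RLE, without the filter, in DESeq2, in limma voom and in the compared groups only. PC-3p-6907_517 was -0.086, -0.0026, -0.0039, -0.094, -0.13, -0.094 and -0.075 under RLE, library totals, no filter, DESeq2, voom, the compared groups and the block. Family values under library totals, the compared groups and the block were 0.040, 0.086 and 0.084 for miR166, 0.079, 0.15 and 0.13 for miR408, and 0.024, 0.092 and 0.11 for miR169. miR408 was 0.011 under RLE and 0.011 in DESeq2, and miR528 was 0.050 in the compared groups and 0.056 with the block. With 1 entry per sequence miR319 was -0.018 and miR160 -0.042.

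With miR166 left out of the library total and of its own list, the differences of shares, GA3 minus untreated in percentage points, were as follows: GAMYB and TCP targeting 3.92, MADS-box targeting -1.35, auxin signalling 0.649, meristem and growth factors -3.17, other named families 2.28, phase change -0.328, phosphate and sulphate -0.979, reproductive triggers 0.0164, small RNA pathway 0.455, 18 to 20 nt 2.37, 21 nt -3.56, 22 nt 0.977, 23 nt 0.183 and end variants 3.62. Without miR166 the total is smaller, so the shares of all other sequences are larger, and a larger difference is not a stronger one. With miR166 kept, the difference was 1.25 for GAMYB and TCP targeting. For meristem and growth factors it was 0.247 with miR166 kept, so its sign changed.

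Leaving out each library in turn gave ranges that crossed 0 for these log2 fold changes, with families first: miR160 -0.073 to 0.39, miR166 -0.22 to 0.10, miR169 -0.21 to 0.12, miR408 -0.18 to 0.33, miR528 -0.37 to 0.14, miR6424 -0.27 to 4.18, PC-3p-6907_517 -0.31 to 0.34, PC-5p-5182_671 -0.58 to 0.23, gma-miR482b-3p -5.53 to 6.18, gma-miR6300 -0.00040 to 1.08, osa-MIR2118e-p3_2ss13TA19CT -0.27 to 0.85, osa-miR444f -0.19 to 0.010, zma-MIR397b-p5 -0.67 to 0.038, zma-miR156d-3p_L+1 -0.43 to 0.32, zma-miR166a-3p -0.21 to 0.14, zma-miR169a-5p -0.72 to 0.082, zma-miR169o-5p_R-1 -0.41 to 0.039, zma-miR393a-5p_R-1 -0.26 to 0.052 and zma-miR408a_L-1 -0.20 to 0.27.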
